A study of Mus musculus with 20 samples.

Results

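This comparison set CD4+CD8+ double-positive (DP) donor T cells against CD8+ donor T cells, both lacking *Dnmt3a*. Its members are 8 of the 20 libraries of the experiment, 4 of KO DP cells and 4 of KO CD8+ cells, matched by the animal number in their names. Libraries with equal numbers were taken to come from the same animal. Of the 17101 genes in the deposited table, 12153 averaged 10 or more normalized counts across these 8 libraries and were tested.

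Donors were C57BL/6J (B6) mice aged 6 to 12 weeks and recipients were irradiated B6D2F1 mice aged 8 to 12 weeks, a haploidentical bone marrow transplantation model in which donor T cells attack host tissue (graft-versus-host disease). All donors of the 8 libraries carried floxed *Dnmt3a* alleles and CD4-Cre (labelled DNMT3a KO, CD4-Cre 2loxP), so the control CD8+ cells bore the same deletion as the DP cells. The *Cd4* promoter drives this Cre. Because developing thymocytes pass through a stage that expresses *Cd4*, the deletion reaches CD8+ as well as CD4+ T cells. Splenic donor T cells were sorted on day +10. KO CD4+ cells of the same 4 animals, and WT CD4+ and WT CD8+ cells of other animals, served only as reference points. WT DP cells were not analysed here. *Dnmt3a*, the targeted gene, encodes a de novo DNA methyltransferase. Its normalized counts were 2007, 1287, 1515 and 1664 in KO CD8+ cells of animals 1 to 4 and 1571, 1021, 650.4 and 1332 in KO DP cells, all below the 3542 to 3812 of the WT CD8+ libraries. These counts cover every exon of the gene, so transcripts that lack the deleted part are counted too.

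CD4 and CD8 are the coreceptors that bind MHC class II and class I beside the T cell receptor. Thymocytes express both for a short time before they settle on 1 lineage, with the factor ThPOK (*Zbtb7b*) holding the CD4+ fate and *Runx3* silencing *Cd4* in the CD8+ fate. A mature peripheral T cell normally keeps 1 coreceptor. DP T cells in the periphery have been described in chronic infection, inflammation and graft-versus-host disease, and in the gut a related population carries CD8 as an alpha-alpha homodimer. The comparison asks how far the DP transcriptome of these recipients differed from that of the CD8+ cells beside it.

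The libraries were similar in depth, with 39307777 to 45420708 reads on genes in KO CD8+ cells and 41439155 to 46966318 in KO DP cells. One library stood apart. DP cells of animal 3 had reads on 11783 genes, against 13203 to 14198 in the other DP libraries, and 735 of the tested genes had no read in it, against 25 to 169 in the other 3. Between DP and CD8+ cells of animal 3, 25.3% of genes differed by more than 1 log2 unit, against 5.58% to 7.73% in the other animals. For genes with a mean above 1000, the median SD over DP libraries was 0.290 on the log2 scale with animal 3 and 0.176 without it, the latter near the 0.177 of the CD8+ libraries. Results are therefore given with all 4 animals and without animal 3.

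Markers of alpha-beta T cells (*Cd3e*, *Cd3d*, *Cd3g*, *Cd247*, *Cd5*, *Cd6*, *Cd2* and *Bcl11b*) summed to 128744 to 236601 normalized counts in DP and 130059 to 163568 in CD8+ cells, with animal 3 highest in both. The B cell genes *Ms4a1* and *Pax5* and the plasma cell gene *Tnfrsf17* were at 0 in all DP libraries. The 8 B cell markers summed to 1627 to 2250 in DP and 1440 to 2286 in CD8+ cells. The 8 monocyte and macrophage markers summed to 2271 to 3688 and 2388 to 6037, the 10 dendritic cell markers to 7703 to 9285 and 9527 to 12728, and the 5 NK cell markers to 2227 to 3841 and 2122 to 4790. The 6 plasma cell markers summed to 5517 to 8786 and 4643 to 8822, and the 6 gamma-delta and invariant T cell markers to 401.2 to 1945 and 617.6 to 2002. In none of these lists were all DP libraries above all CD8+ libraries. The sums cannot tell how frequent other cells were, because some highly counted members were also higher in WT CD8+ than in WT CD4+ T cells. These were *Itgax*, *Itgam* and *Eomes* of the dendritic, monocyte and NK cell lists. They averaged 7257, 2241 and 1769 in CD8+ and 5287, 1021 and 1377 in DP cells. For the dendritic cell list, all DP libraries lay below all CD8+ libraries by sum. Gene by gene, 8 of its 10 markers had a positive fitted log2 difference and 2 a negative one (median 0.24), where 48.6% of all genes were positive. *Xcr1*, *H2-Aa* and *H2-Ab1* were higher (against 16.2% of all genes) and *Itgax* lower (against 15.1%) in all 4 animals. Of 8 monocyte and macrophage markers, 5 were positive and 3 negative, and of 4 NK cell markers tested, 1 was positive and 3 negative. Animal 3 was also the highest for neutrophil markers, with a sum of 7334 in DP and 2745 in CD8+ cells against at most 542.7 in the others. Its pancreatic acinar markers summed to 9278 and 8339, against at most 3715, and its 3 erythroid markers to 959.5 and 1007, against at most 326.7. The part of these other cells in the results below was not tested.

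With all 4 animals, *Cd4* was the 1 gene that passed the threshold between DP and CD8+ cells in limma, where DESeq2 on whole reads called 90 and limma without the mean-variance trend called 0. The cells were sorted on CD4 and CD8, so the coreceptor genes check the sort and are not a finding about the cells. *Cd4*, on chromosome 6 from 124864693 to 124888247 (GRCm38, RefSeq), had normalized counts of 15351, 8758, 12911 and 11473 in DP cells of animals 1 to 4 and of 302, 336, 349 and 458 in CD8+ cells. The groups were far apart, with a log2 difference of 5.05 (SE 0.18, limma, adjusted p = 0.000316), or 33.2-fold. The DP level remained below that of CD4+ cells of the same animals, which held 54510.5, 44804, 74386 and 72645, and amounted to 28.2%, 19.5%, 17.4% and 15.8% of it. In bulk RNA, fewer cells with the transcript and less transcript per cell cannot be told apart.

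The genes of both CD8 chains lay at the CD8+ level. *Cd8a* (chromosome 6, 71373427 to 71379171) had 56492, 41594, 68516 and 52025 in DP and 58009, 45783, 68740.3 and 49351 in CD8+ cells. Its log2 difference was -0.03 with a 95% interval of -0.27 to 0.21 (limma, adjusted p = 0.900). *Cd8b1* (chromosome 6, 71322788 to 71337492), the chain that the alpha-alpha form of CD8 lacks, had 45336, 43969, 48814 and 34203 in DP and 46313, 46606, 44901 and 35472 in CD8+ cells. Its difference was -0.01 with an interval of -0.24 to 0.22 (adjusted p = 0.955). The ratio of *Cd8a* to *Cd8b1* was 0.946 to 1.52 in DP and 0.982 to 1.53 in CD8+ libraries, ranges that overlapped almost in full.

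**Figure D1:**
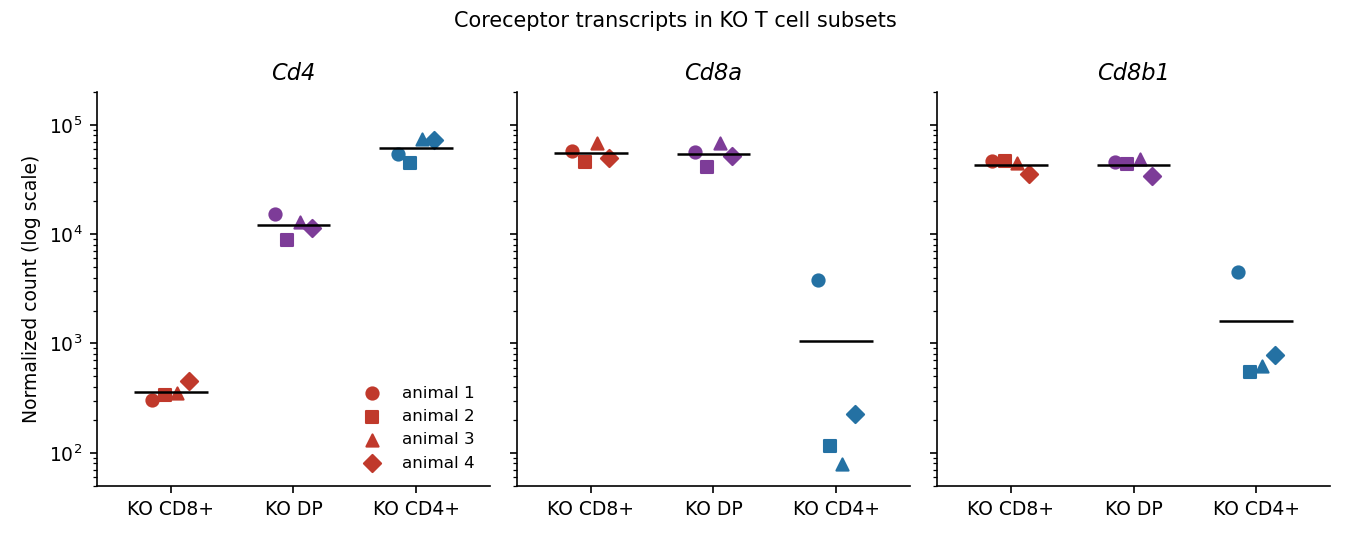
Normalized counts of *Cd4*, *Cd8a* and *Cd8b1* on a log axis in KO CD8+, KO DP and KO CD4+ libraries, 1 marker shape per animal (n = 4 a group), with the group mean as a line. *Cd4* in DP cells, 8758 to 15351, lies between the 2 single-positive subsets, and both CD8 genes lie at the CD8+ level.

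Across all genes, 1 of 12153 passed the adjusted threshold of 0.05 in limma with 4 animals (0.00823% of those tested). Every other gene had an adjusted p of at least 0.405, and 2649 genes shared exactly that value, which is given once here for the genes below that carry it. Before adjustment, 565 genes lay higher and 882 lower in DP cells at p under 0.05 (4.65% and 7.26%). For 9113 of the 12153 genes the 95% interval of the difference lay within 1 log2 unit of 0. The median half-width was 0.364 (0.195 without animal 3), above the median absolute difference of 0.206. Small differences were thus not well resolved with 4 animals. DP cells were higher in all 4 animals for 1971 genes (16.2%) and lower in all 4 for 1835 (15.1%), and the 2 groups of libraries did not overlap for 328 (2.7%).

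Leaving out animal 3 moved the count from 1 to 904 of 12134 genes (7.45%), with 333 higher (2.74%) and 571 lower (4.71%) in DP cells. Leaving out animal 1, 2 or 4 instead gave 1 gene each. On the whole reads of animals 1, 2 and 4, edgeR called 1019 genes (8.40%) and DESeq2 815 (6.72%), while limma without the animal term called 1. The 904 calls therefore rest on differences within 3 animals. With all 4 animals DESeq2 called 90 genes (0.741%), 89 of which were among the 904. Animal 3 took no part in the 904 calls, and 778 of them (86.1%) had the same sign in it, against 64.8% of all genes. Of the 571 genes called lower, 524 (91.8%) were lower in animal 3 too, where 52.8% of all genes were lower. Of the 333 called higher, 254 (76.3%) were higher in it, against 46.6% of all. In separate limma fits with all 4 animals, 860 of 12175 genes (7.06%) passed between DP and CD4+ cells and 2305 of 12189 (18.9%) between CD4+ and CD8+ cells. The order of these counts turned to 2051 and 1333 in a joint fit of the 12 KO libraries and to 1746 and 1446 without animal 3. These comparisons share libraries with each other.

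**Figure D2:**
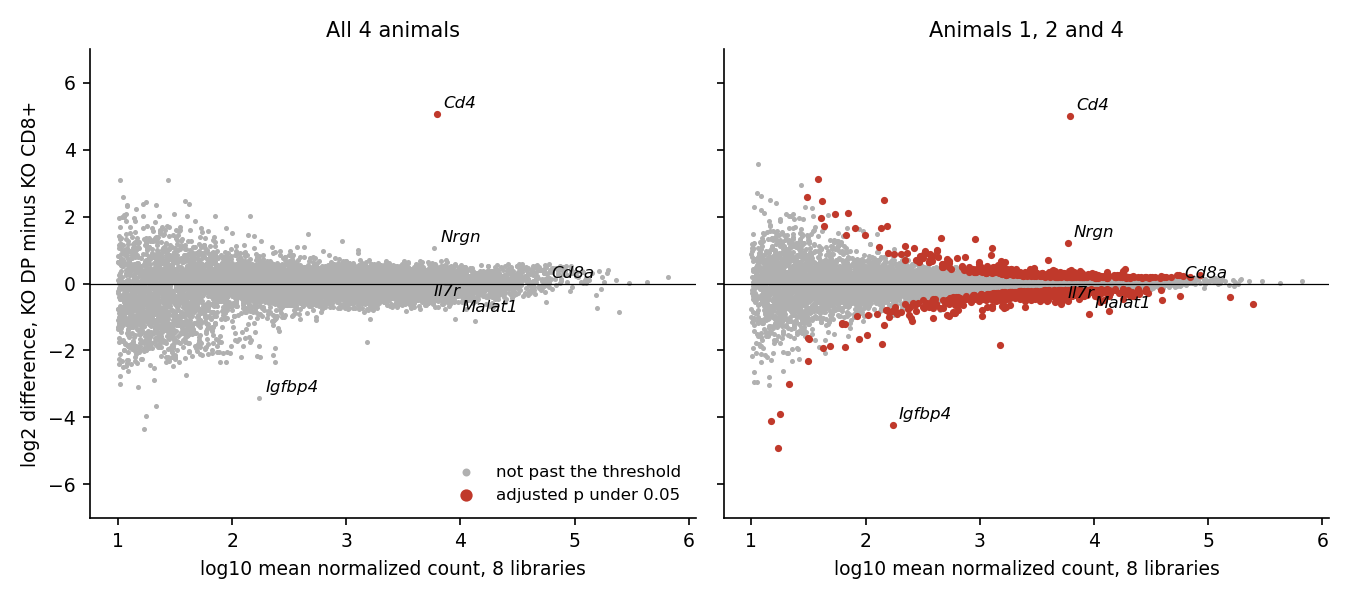
Log2 difference between KO DP and KO CD8+ cells against the log10 mean normalized count of each tested gene, with all 4 animals (left) and with animals 1, 2 and 4 (right). Red points have an adjusted p under 0.05 (limma): 1 gene, *Cd4*, on the left and 904 on the right, where *Igfbp4* lies among the lowest.

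Transcription factors that set the CD4+ or CD8+ lineage differed little. Of 17 coreceptor and lineage genes, *Cd4* alone passed with all animals, in limma and in DESeq2. Without animal 3 the higher genes were *Cd4*, *Zbtb7b* and *Tox* (against 2.74% of all genes) and the lower genes *Runx1*, *Bcl11b* and *Tcf7* (against 4.71%). *Zbtb7b*, the gene of ThPOK, had 2457, 1848, 3840.3 and 2808 in DP and 1546, 1587, 3283 and 2539 in CD8+ cells. It was higher in DP cells of every animal, although the groups overlapped (log2 difference 0.31, SE 0.11, adjusted p = 0.405 with 4 animals, 0.34 and 0.0131 without animal 3). DP cells held 27.7% to 42.8% of the *Zbtb7b* of CD4+ cells of the same animal, where CD8+ cells held 23.8% to 38.7%. *Runx3* had 8724, 8669.8, 4142 and 7922 in DP and 8289.8, 9824, 8563 and 9116 in CD8+ cells. The low value in DP cells was that of animal 3, and the log2 difference was -0.34 with all animals and -0.10 without it (limma, adjusted p = 0.408 and 0.311).

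*Gata3*, which acts in CD4+ lineage choice and in helper cells, differed by 0.08 with an interval of -0.14 to 0.31. *Tcf7* and *Lef1*, HMG-box factors of naive, progenitor and memory T cells, were lower in DP cells of all 4 animals, by 0.29 and 0.33 on the log2 scale (-0.27 and -0.19 without animal 3). *Tcf7* had 4836, 1336, 3039.7 and 4722 in DP and 5919, 1458, 3834 and 6199 in CD8+ cells. *Bcl11b*, a factor of T cell commitment, was also lower in all 4 animals (-0.37, and -0.19 without animal 3). *Tox*, which is needed for CD4+ thymocyte development and marks exhausted CD8+ cells, was higher in DP cells of animals 1, 2 and 4 and lower in animal 3. Its difference was 0.06 with all animals and 0.30 without animal 3 (adjusted p = 0.863 and 0.00254). *Satb1*, *Myb*, *Ikzf1*, *Ets1*, *Cbfb*, *Patz1* and *Runx1* had differences of -0.23 to -0.01 with 4 animals and of -0.33 to 0.23 without animal 3, where *Satb1*, *Myb* and *Cbfb* had positive values.

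To see whether DP cells took up other parts of the CD4+ or CD8+ programs, genes were first chosen in WT libraries alone. The criteria were an adjusted p under 0.05 (limma), a difference of at least 2 log2 units between WT CD4+ and WT CD8+ cells and a mean of at least 50. The coreceptor genes were set apart. This gave 166 genes higher in CD4+ cells, of which 157 were also at least 2-fold higher in KO CD4+ than KO CD8+ cells. Only these 157 were kept, so the second step used the KO libraries that also set the scale below. By mean log2 values, DP cells lay closer to CD8+ than to CD4+ cells for 151 of the 157 (96.2%). On a scale of normalized counts where CD8+ cells of the same animal are 0% and CD4+ cells 100%, these genes had median positions of 7.58%, 0.750%, 0% and 2.59% in animals 1 to 4. On a log2 scale the positions were 20.7%, 1.72%, 0% and 7.73%. *Cd4* itself stood at 27.8%, 18.9%, 17.0% and 15.3%.

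*Ajuba*, a LIM-domain scaffold gene, was the 1 gene of the 157 that stood at or above *Cd4* in all 4 animals, at 44.3%, 36.4%, 21.7% and 16.7%, and was singled out after its values were seen. The 6 genes not closer to CD8+ cells were *Ccl1*, *Cd70*, *Csf2*, *Igfbp7*, *Krt17* and *Lgals7*. *Ccl1*, a chemokine gene, had 191, 45.1, 1938 and 619 in DP, 39.6, 26.8, 555 and 282 in CD8+ cells, with a mean of 855.9 in CD4+ cells. Of 102 genes higher in WT CD8+ cells, 94 met the same 2-fold criterion in KO CD4+ and KO CD8+ cells and were kept. DP cells were closer to CD8+ cells for 89 of them (94.7%), all but *Ccdc85c*, *Ceacam16*, *Dscam*, *Kcnc1* and *Mex3a*. Median positions were 8.29%, -0.0989%, 19.3% and 1.54% of the way to CD4+ cells by counts, and 4.35%, -0.0574%, 8.67% and 1.10% on a log2 scale, with animal 3 the farthest on both.

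**Figure D3:**
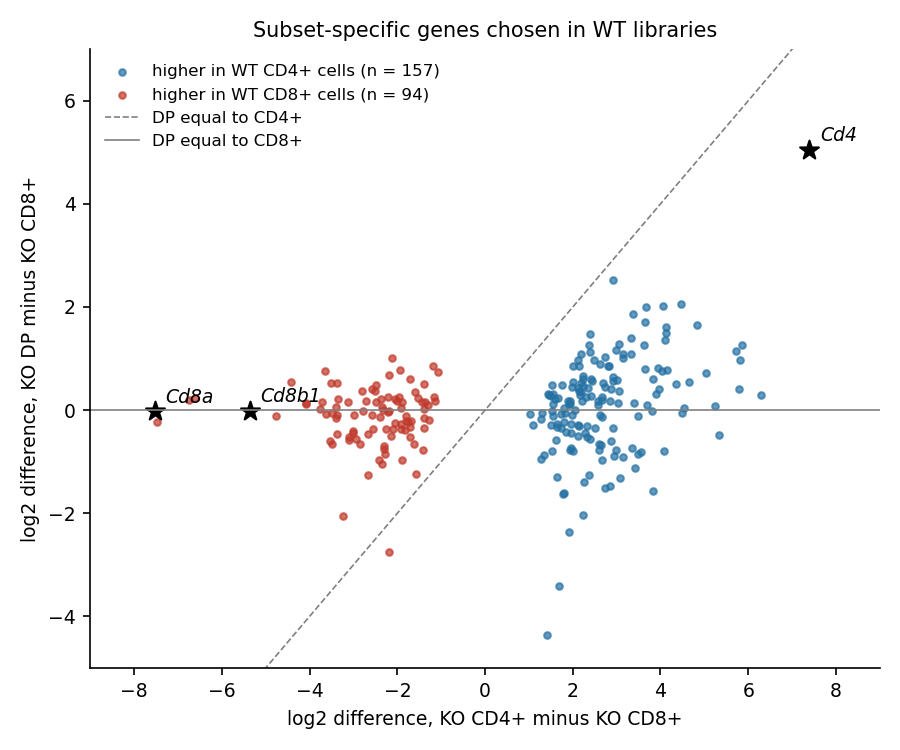
Mean log2 difference between KO DP and KO CD8+ cells against that between KO CD4+ and KO CD8+ cells (1 point per gene, means of 4 animals), with the coreceptor genes as stars. The 157 and 94 genes were chosen in WT libraries and kept if KO CD4+ and KO CD8+ cells differed at least 2-fold in the same direction. Most points lie near the horizontal line, where DP cells equal CD8+ cells, and *Cd4*, at 5.05, lies above every other point and below the dashed line, where DP cells equal CD4+ cells. Both axes use the same KO CD8+ libraries.

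Genes of circulation and lymphoid homing were mostly lower in DP cells. Of 17 homing receptors and integrins, 10 were lower (against 15.1% of all genes) and 1 higher (against 16.2%) in all 4 animals. The median log2 difference was -0.20 (-0.27, -0.27, -0.23 and -0.19 in animals 1 to 4, and -0.31 in the fit without animal 3), where all genes had -0.01. None passed the threshold with 4 animals in limma, while DESeq2 called 2 as lower, *Ccr7* among them. Without animal 3, 9 passed in limma as lower (against 4.71% of all genes) and 1 (*Cxcr6*) as higher (against 2.74%). *Ccr7*, the receptor that guides cells to T cell zones, had 189, 90.2, 43.4 and 225 in DP and 457, 118, 214 and 725 in CD8+ cells. Its log2 difference was -1.40 (SE 0.32, limma, adjusted p = 0.405, and 0.00196 without animal 3), with an adjusted p of 0.00948 in DESeq2 with 4 animals.

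*S1pr1*, which lets T cells leave lymphoid organs, was lower in all 4 animals by 0.36, and *Itga4*, an integrin chain, by 0.56 on the log2 scale. The chemokine receptors *Ccr2* and *Cx3cr1* were lower in all 4 animals by 0.37 and 0.36. *Ccr9*, a gut-homing receptor, had 1022, 248, 779 and 3559 in DP and 818, 256, 861 and 3178 in CD8+ cells. Its difference of 0.07 had no fixed sign, with an interval of -0.22 to 0.37. The integrin gene *Itgae*, a mark of tissue-resident cells, was lower in all 4 animals (-0.73), although without animal 3 its adjusted p was 0.345.

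Memory and progenitor genes followed the same pattern, and the lists share members, *Ccr7* among them. Of 14, 9 were lower (against 15.1% of all genes) and 2 (*Id3* and *Cd27*) higher (against 16.2%) in all 4 animals, with a median of -0.31. DESeq2 with 4 animals called 3 as lower. Without animal 3, 7 passed in limma as lower (against 4.71% of all genes) and 1 as higher (against 2.74%). *Il7r* (chromosome 15, 9506159 to 9529941), the receptor for the survival cytokine IL-7, had 8035, 2208, 1998 and 4280.0 in DP and 10669, 3263, 2701 and 7920.4 in CD8+ cells. DP cells were lower in each animal although levels varied more between animals than within them (log2 difference -0.57, SE 0.11, limma, adjusted p = 0.405, and 2.97e-06 without animal 3). DESeq2 with 4 animals gave *Il7r* an adjusted p of 0.00453. *Bcl2*, which guards against apoptosis, *Foxo1*, which drives *Il7r* and *Klf2*, and *Klf2* itself were lower in all 4 animals by 0.41, 0.37 and 0.24. Their adjusted p was 0.405 with 4 animals and 0.00104, 0.00377 and 0.00689 without animal 3.

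**Figure D4:**
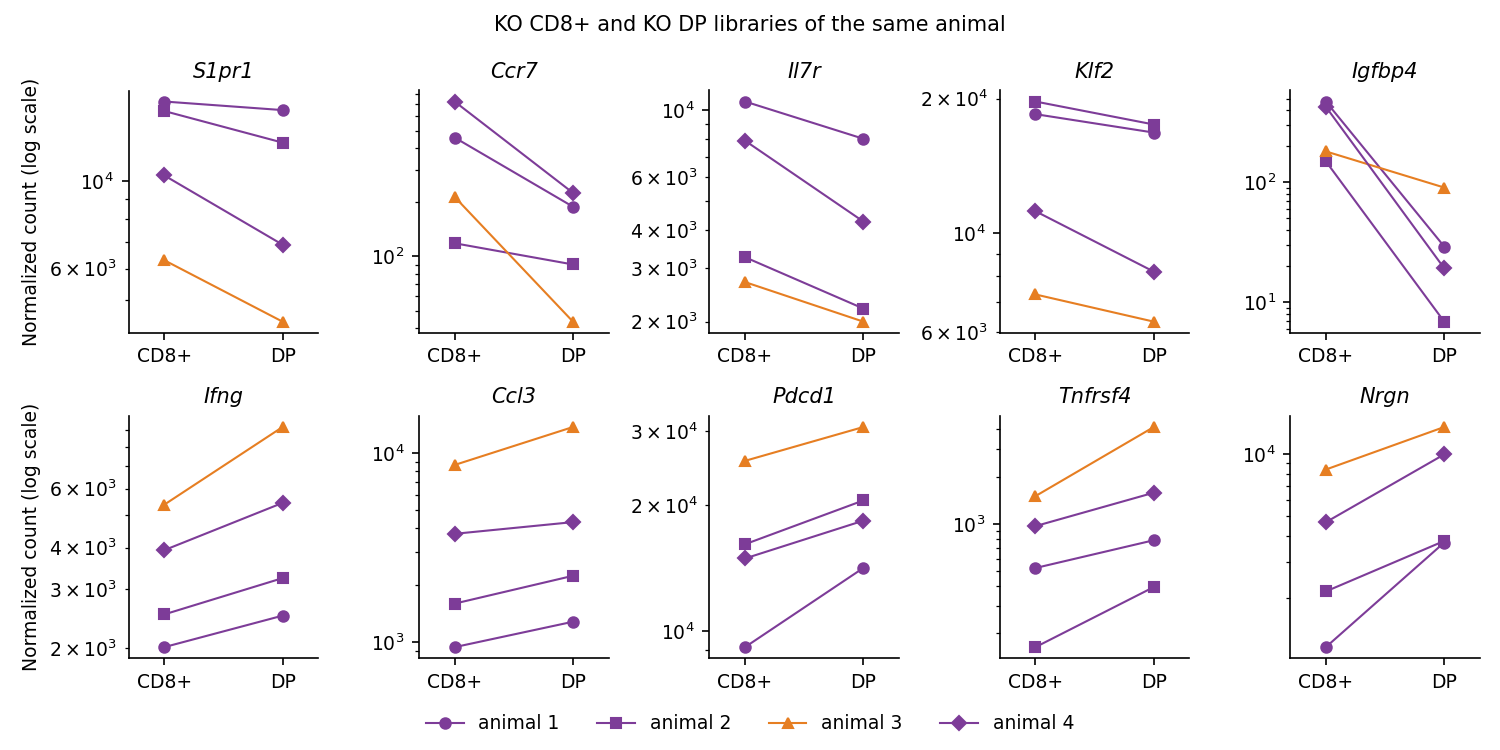
Normalized counts (log axes) of 10 genes in KO CD8+ and KO DP libraries, with a line joining the libraries of 1 animal and animal 3 in orange. *S1pr1*, *Ccr7*, *Il7r*, *Klf2* and *Igfbp4* were lower and *Ifng*, *Ccl3*, *Pdcd1*, *Tnfrsf4* and *Nrgn* higher in DP cells of all 4 animals.

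Effector cytokine genes leaned the other way. Of 13 cytokines and chemokines, 5 were higher (against 16.2% of all genes) and 0 lower (against 15.1%) in all 4 animals, with a median of 0.24. DESeq2 with 4 animals called 2 as higher and 0 as lower. Without animal 3, 4 passed in limma as higher (*Ifng*, *Tnfsf14*, *Ccl3* and *Ccl4*, against 2.74% of all genes) and 1 as lower (*Ccl5*, against 4.71%). *Ifng* (chromosome 10, 118441046 to 118445894), the main cytokine of type 1 responses, had 2502, 3239.8, 9172 and 5439 in DP and 2014, 2523, 5370.2 and 3927 in CD8+ cells. It was 1.39-fold higher (log2 difference 0.48, SE 0.10, limma, adjusted p = 0.405, and 0.000582 without animal 3), with an adjusted p of 0.0417 in DESeq2 with 4 animals. The macrophage-attracting chemokines *Ccl3* and *Ccl4* were higher by 0.45 and 0.54 (0.38 and 0.35 without animal 3), and *Csf2*, the gene of GM-CSF, by 1.26 with counts of 79.4 to 601 in DP and 25.7 to 207 in CD8+ cells. *Ccl5* was lower in animals 1, 2 and 4 (50018, 34367 and 17415 against 66968, 52983 and 23741) and higher in animal 3 (42464 against 30674).

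Granzyme B and perforin, killing proteins of CD8+ T cells, had transcripts near the CD8+ level. *Gzmb* had 99141, 270285, 229806 and 140935 in DP and 102721, 270098, 199627 and 139916 in CD8+ cells. The log2 difference of *Gzmb* was 0.04 with an interval of -0.28 to 0.36, and that of *Prf1* was -0.03 with an interval of -0.27 to 0.21. Of 20 cytotoxic effector genes, 5 were higher (against 16.2% of all genes) and 2 lower (against 15.1%) in all 4 animals. Their median was 0.05 (-0.03 after quantile normalization and 0.00 without animal 3). Without animal 3, 2 passed as higher (*Crtam* and *Cst7*, against 2.74% of all genes) and 2 as lower (*Gzmk* and *Eomes*, against 4.71%). *Eomes*, a T-box factor of memory and exhausted CD8+ cells, had 1913, 1448, 1012 and 1136 in DP and 2001, 2193, 1279.7 and 1603 in CD8+ cells.

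Among 18 inhibitory receptors and exhaustion factors, 3 were higher (*Pdcd1*, *Cd160* and *Cd200*) and 2 lower (*Nfat5* and *Nfatc2*) in all 4 animals. These counts lie near the shares over all genes, 16.2% higher and 15.1% lower. The list median was 0.14 (0.30 without animal 3), with a negative value in animal 3 (-0.26) and 0.13 to 0.34 in the others. Without animal 3, 8 passed as higher (against 2.74% of all genes) and 2 as lower (against 4.71%). *Pdcd1* (chromosome 1, 94038305 to 94052553), the gene of PD-1, had 14153, 20509, 30707 and 18352 in DP and 9156, 16120.0, 25494 and 14908 in CD8+ cells. It was 1.31-fold higher (log2 difference 0.39, SE 0.10, limma, adjusted p = 0.405, and 3.97e-05 without animal 3), with an adjusted p of 0.0857 in DESeq2 with 4 animals. *Lag3* and *Havcr2* (TIM-3) were higher in animals 1, 2 and 4 and lower in animal 3, with differences of 0.27 and 0.12 with all animals and 0.38 and 0.29 without animal 3.

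Of 15 CD4+ helper and regulatory genes, 4 were higher (against 16.2% of all genes) and 2 lower (against 15.1%) in all 4 animals, with a median of 0.08 (0.28 without animal 3). Without animal 3 *Il2ra*, *Tnfrsf4*, *Tnfrsf18* and *Il21* passed as higher (against 2.74% of all genes) and *Il6ra* as lower (against 4.71%). *Tnfrsf4*, the gene of the costimulatory receptor OX40, had 785, 395, 4134 and 1577 in DP and 523, 164, 1499.6 and 966 in CD8+ cells. It was 2.01-fold higher than in CD8+ cells (log2 difference 1.01, SE 0.17, limma, adjusted p = 0.405, and 0.000233 without animal 3) and 2.14 log2 units below CD4+ cells (adjusted p = 0.00576). DESeq2 with 4 animals gave *Tnfrsf4* an adjusted p of 0.000519 against CD8+ cells. *Tnfsf11*, the gene of the cytokine RANKL, had 90.6, 58.9, 226 and 191 in DP and 24.6, 15.4, 70.7 and 121 in CD8+ cells, 2.84-fold higher. Against CD4+ cells it was 2.62 log2 units lower (adjusted p = 0.00251). For both genes the DP level thus lay between the single-positive subsets and nearer to CD8+ cells.

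Genes of the DP thymocyte stage gave no separate pattern. Of 14 such genes 8 could be tested, none passed with or without animal 3, and 1 (*Tcf12*) was lower in all 4 animals (against 15.1% of all genes). Their median was -0.15 (-0.08 after quantile normalization), and -0.01 without animal 3. *Rag1*, the recombinase gene of immature lymphocytes, was at 0 in DP and CD8+ cells of animals 1, 2 and 4, and had 38.5 and 2.24 in DP and CD8+ cells of animal 3. A count of 0 allows up to 3 reads. Of 14 intraepithelial and CD8 alpha-alpha genes, 3 (*Cd160*, *Fcer1g* and *Ahr*) were higher (against 16.2% of all genes) and 1 (*Itgae*) lower (against 15.1%) in all 4 animals. Their median of 0.04 turned to -0.05 without animal 3. *Ahr*, the aryl hydrocarbon receptor needed by intraepithelial lymphocytes, had 580.5, 351, 509 and 264 in DP and 283, 113, 349.9 and 219 in CD8+ cells. Its log2 difference was 0.87 (SE 0.25, limma, adjusted p = 0.405, and 0.00401 without animal 3), with an adjusted p of 0.132 in DESeq2 with 4 animals. *Fcer1g*, a signalling adaptor, differed by 0.59 (limma, adjusted p = 0.405, and 0.000653 without animal 3), with an adjusted p of 0.00465 in DESeq2 with 4 animals.

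Metabolic and proliferation genes showed small differences. Of 15 glycolysis genes, 9 were higher (against 16.2% of all genes) and 2 (*Slc2a1* and *Pfkp*) lower (against 15.1%) in all 4 animals, with a median of 0.13 (0.06 after quantile normalization). Without animal 3, 6 passed, all higher (against 2.74% of all genes). *Tpi1* and *Ldha*, enzymes of glycolysis, were higher by 0.34 and 0.33 on the log2 scale. Of 17 DNA replication genes, 5 were higher in all 4 animals (*Mcm5*, *Pcna*, *Tyms*, *Dut* and *Gins2*, against 16.2% of all genes) and 12 passed as higher without animal 3 (against 2.74%). The median was 0.12 (0.20 without animal 3, whose own median was -0.14 against 0.13 to 0.22 in the others). Of 18 mitosis genes, 6 were higher (against 16.2% of all genes) and 1 lower (against 15.1%) in all 4 animals, with a median of 0.05 (0.09 without animal 3). Without animal 3 *Cenpf* alone passed, as lower (against 4.71% of all genes). *Mki67*, a marker of cycling cells, had 23295, 44092, 18429 and 37560.5 in DP and 20095, 52393, 46374 and 42031 in CD8+ cells, with a difference of -0.38 and an interval of -0.95 to 0.18. The pair of animal 3 differed by -1.33, and without it the difference was -0.07 (limma, adjusted p = 0.591).

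Interferon-stimulated genes leaned lower in DP cells of animals 1, 2 and 4 (medians -0.25, -0.28 and -0.14) and not in animal 3 (0.10). Of 20, 2 were higher (against 16.2% of all genes) and 5 lower (against 15.1%) in all 4 animals, with a median of -0.11 (-0.22 without animal 3). Without animal 3 *Ifitm2* passed as higher (against 2.74% of all genes) and 7 genes as lower (against 4.71%). *Ifit3*, an antiviral effector, had 1575, 687, 307 and 371 in DP and 2971, 1334, 334 and 748 in CD8+ cells. Its log2 difference was -0.75 (SE 0.18, limma, adjusted p = 0.405, and 3.82e-07 without animal 3), with an adjusted p of 0.0213 in DESeq2 with 4 animals. Of 11 enzymes and readers of DNA methylation, 5 were lower (against 15.1% of all genes) and 0 higher (against 16.2%) in all 4 animals. Their median was -0.18 and was -0.02 without animal 3, where *Dnmt3a*, *Tet2* and *Tet3* passed as lower (against 4.71% of all genes). The remaining *Dnmt3a* transcript differed by -0.56 (SE 0.17, adjusted p = 0.405) and by -0.34 without animal 3 (adjusted p = 0.0117). Animal 3 had a median of -0.83 over this list, against -0.07 to 0.02 in the others.

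T cell receptor signalling, survival, immediate early and heat shock genes had medians of -0.01, 0.00, 0.01 and 0.11. These were -0.05, 0.01, -0.01 and -0.01 after quantile normalization and -0.02, -0.02, 0.10 and 0.07 without animal 3. Of the 16, 14, 11 and 11 genes tested, 1, 1, 0 and 2 passed as higher (against 2.74% of all genes) and 2, 1, 0 and 0 as lower (against 4.71%) without animal 3. *Zap70*, the kinase bound to the activated receptor, passed as higher (0.21), and *Plcg1*, a phospholipase that acts below it, as lower (-0.23).

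**Figure D5:**
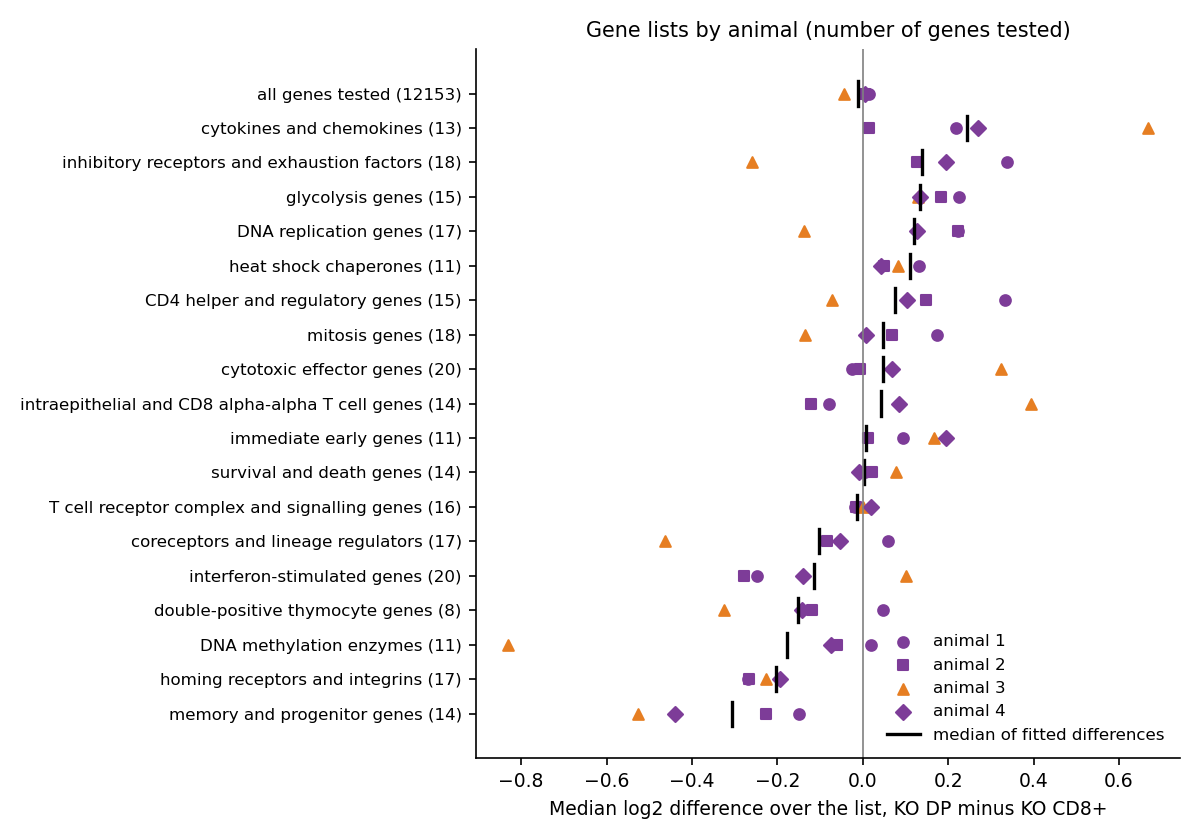
Median log2 difference (KO DP minus KO CD8+) over each gene list, 1 marker shape per animal and animal 3 in orange, with the median of the fitted differences as a bar and the number of genes tested in parentheses. Homing and memory lists lie below 0 in all 4 animals. Glycolysis, cytokine, immediate early and heat shock lists lie above 0 in all 4, some of them by little. Animal 3 is far from the others for DNA methylation enzymes and cytokines.

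The largest differences that had 1 sign in all 4 animals, an unadjusted p under 0.05 and a mean of at least 50 came from a pool of 527 higher and 809 lower genes. The largest difference among the lower genes was that of *Igfbp4* (chromosome 11, 99040005 to 99052655), the gene of an insulin-like growth factor binding protein. It had 29.1, 6.87, 90.6 and 19.2 in DP and 474, 150.3, 182 and 429 in CD8+ cells. The groups did not overlap, and DP cells were 10.7-fold lower with 4 animals and 18.6-fold lower without animal 3 (limma, adjusted p = 0.405 and 7.08e-09). DESeq2 with 4 animals gave *Igfbp4* an adjusted p of 9.22e-07. *Abca1*, a cholesterol exporter, had 121, 9.81, 34.8 and 105 in DP and 200.2, 55.6, 69.5 and 530.4 in CD8+ cells. *Fam196b*, *Vasn*, *Tgfbr3*, *Tbrg3*, *Gp1ba*, *Btnl5-ps* and *Gm16907* were also among the 10 lowest, with differences of -2.36 to -1.92. For these 7 the DP library of animal 3 held 0 to 2.48 normalized counts, and without it their differences were -1.65 to -0.77.

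Besides *Cd4*, *Tnfsf11* and *Ccl1*, the 10 largest rises by this rule held *Gstm5*, *Bace2*, *H2-Ea-ps*, *Vill*, *Plk2*, *Flt1* and *Ifi27l2b*, with differences of 1.39 to 2.03 (0.88 to 2.48 without animal 3). With 4 animals only *Cd4* passed in limma, while DESeq2 also called *Ccl1*, *Tnfsf11* and *Gstm5* (adjusted p = 0.000103, 0.0225 and 0.0494). In CD8+ cells of animal 2, *Gstm5* and *Flt1* had a count of 0 and *Bace2* and *Plk2* had 2.06. *Vill* and *Ifi27l2b* differed most in animal 3 (2.79 and 2.93). *H2-Ea-ps*, an MHC class II gene that is inactive in B6 mice and intact in the DBA/2 parent of the recipients, had 82.0, 147, 69.5 and 16.3 in DP and 54.6, 43.2, 10.1 and 4.74 in CD8+ cells. The class II genes *H2-Aa* and *H2-Ab1* of the dendritic cell list were higher in DP cells of all 4 animals as well. The summed list was lower in DP than in CD8+ cells of each animal, but 8 of its 10 markers had a positive log2 difference. *Itgax*, which weighs heavily in that sum, had a negative one (-0.46). The part of recipient RNA in these values was not tested.

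Ranked by p instead, a choice made after the values were seen, the next genes after *Cd4* were *Malat1*, *Acoxl*, *Rara*, *Klf3*, *Atp10d*, *Nrgn*, *Mdm4* and *Taok1*. *Malat1*, an abundant nuclear noncoding RNA, had 12590.3, 3605, 2777 and 5593 in DP and 22537, 8271, 7503 and 9258 in CD8+ cells, 2.07-fold lower (log2 difference -1.05, SE 0.13, limma, adjusted p = 0.405, and 1.36e-09 without animal 3). *Nrgn*, the gene of a calmodulin-binding protein, had 3716, 3781, 13494 and 9939 in DP and 1155, 2152, 8393 and 4659.6 in CD8+ cells, 2.10-fold higher. *Acoxl* had 365, 389, 1097 and 491 in DP and 154, 231, 444 and 242 in CD8+ cells, 2.11-fold higher. *Klf3*, a Kruppel-like repressor, and *Rara*, a retinoic acid receptor, were lower in all 4 animals by 0.80 and 0.72. Each of these genes passed without animal 3 and in DESeq2 with all 4 animals.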

How the data were processed

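RNA was measured in sorted splenic donor T cells, and the titles of the samples gave genotype, subset and animal number. The authors prepared poly(A)-selected strand-specific libraries, aligned reads to mm10 with STAR (2.7.2b per the submitters' processing notes), counted pairs on exons of UCSC genes with the strand kept, and divided each library by 1 DESeq2 size factor. The deposited values are this signal, a normalized count. Multiplying back gave whole reads for 100% of values (relative tolerance 1e-06).

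Genes averaging 10 or more normalized counts in a comparison were tested with limma 3.58.1 in R 4.3.3 (eBayes with trend) on log2(normalized count + 1), with the animal number as a term, 2-sided, with Benjamini-Hochberg adjustment at 0.05. This scale understates differences of low genes. Fitted folds and intervals come from it. Comparisons were paired by the animal number in the sample names, a choice made before the fit. As a check, deviations from group means correlated between DP and CD8+ libraries of equal number (r 0.368 to 0.566) and not of different number (-0.404 to 0.0578). Such deviations sum to 0 within a group, so part of this contrast is built in. No 2 libraries agreed within sampling noise (lowest chi-square per degree of freedom 67.8). The pairing rests on the numbers in the labels, with the correlation only as a check. Alternatives used edgeR 4.0.16 and DESeq2 1.42.0 on the whole reads, with the same term. The fit was tested on simulated data in which no library stood apart, so a case such as the DP library of animal 3 was not tested. Without animal 3 the fit has 3 pairs and limma borrows the spread across genes.

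The comparison and the gene lists were chosen with earlier results of these data known, so lists get no test. The genes named are the coreceptor and lineage list, genes past the threshold, the 10 largest rises and falls (mean of at least 50, unadjusted p under 0.05, 1 sign in all 4 animals), *Dnmt3a*, up to 5 members of each other list by p, and *Gzmb*, *Prf1*, *Ifng*, *Ccr9*, *Il7r*, *Pdcd1*, *Tox*, *Rag1* and *Mki67*. Other list members are given by name from counts, and *Klf2*, *S1pr1*, *Lag3*, *Havcr2*, *Ccl5*, *Gzmk*, *Ajuba* and the 8 genes ranked by p were chosen after their values were seen. *Cd40lg*, *Foxp3* and other list genes outside the table were not analysed here, and some genes that the rule names are not reported here. RefSeq GRCm38.p6 matched 16304 symbols. Depth is given with the results, and precision rests mainly on the spread between animals. Nothing states that the 4 animals of a group were separate experiments.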

Additional observations from a re-analysis of the deposited data

Results flagged for a closer look

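For each named gene and for depth, the highest or lowest library of each group of 4 was compared with the range of its group, and libraries beyond Dixon's limit are listed. Of 282 groups, 17 stood out, where chance alone marks about 1 in 20, and 9 of the 17 were the DP library of animal 3.

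In that library the normalized count of *Lef1* was 1961 (5309 to 5931 in the other DP libraries), of *Vill* 230.9 (44.2 to 54.9), of *Ifi27l2b* 177.5 (37.3 to 59.3) and of *Gzmc* 870.1 (181.2 to 259.9). *Cst7* had 12412 (3566 to 4791), *Cd3g* 66950 (24546 to 29006), *Ier2* 6596 (4642 to 4933), *Hspe1* 9001 (4070 to 4424) and *Rag1* 38.5 (0 in the others). CD8+ cells of animal 3 also lay apart for *Cd3g* at 35421 (23032 to 24981) and *Rag1* at 2.24 (0 in the others).

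Elsewhere, *Runx1* was low in DP cells of animal 2 at 1155 (1944 to 2059) and *Tet1* high in DP cells of animal 4 at 72.9 (15.7 to 24.8). Among CD8+ libraries, *Gzma* was high in animal 2 at 229921 (34225 to 49663), as was *Gzmk* at 13609 (4438 to 5629). *Malat1* was high in animal 1 at 22537 (7503 to 9258) and *Cd8b1* low in animal 4 at 35472 (44901 to 46606).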

How the results depend on the processing

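The count of genes past the threshold between DP and CD8+ cells was 1 in the fit with the replicate block (the animal number) and 1 without it, and 1 on whole reads in edgeR (1318 at an unadjusted p under 0.05). It was 0 without the mean-variance trend, where *Cd4* had an adjusted p of 0.0779 and 1040 genes had an unadjusted p under 0.05, and 90 in DESeq2. Leaving out 1 replicate gave 1 to 904. With settings chosen after seeing the data, animals 1, 2 and 4 gave 1019 in edgeR, 815 in DESeq2 and 1 in limma without the block. For DP against CD4+ cells, the count of 860 became 237 without the block, 161 without the trend, 2051 in a joint fit of the 12 KO libraries, 1775 in DESeq2 and 186 to 1746 when 1 replicate was left out (1746 without animal 3). For CD4+ against CD8+ cells, 2305 became 514 without the block, 1093 without the trend, 1333 in the joint fit and 1446 to 1995 when 1 replicate was left out (1446 without animal 3). The causes were not tested. A pseudocount of 10, other minimum means, quantile normalization and a common 75th percentile kept the DP against CD8+ count at 1. Of 137 named genes tested, 126 had 1 sign under every alternative. *Cd4*, the 1 gene that had passed the threshold, was among these 126. Depth limits genes of low count most.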
